A study of Mus musculus with 4 samples.

Results

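The enzymes described here build and process the cornified layer of the skin. They are 4 transglutaminases (Tgm1, Tgm2, Tgm3, Tgm5), 4 peptidylarginine deiminases (Padi1, Padi2, Padi3, Padi4), the caspase Casp14 and the aspartic protease Asprv1. They were chosen by symbol, from probe sets whose platform annotation holds exactly 1 gene symbol. All 10 were found among 19938 named genes, each with 1 probe set, so no choice between probe sets was needed.

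Values came from 4 arrays of laser-captured epidermis of mouse glabrous hindpaw skin, the hairless skin of the foot. Mice of one line overexpressed noggin, a secreted antagonist of bone morphogenetic proteins, and mice of the other overexpressed BMP4, one of those proteins; the K14 promoter, active in basal keratinocytes, drove both transgenes. Each array held RNA pooled from 3 animals, with 8 to 10 strips captured from each animal, which gave 2 noggin and 2 BMP4 arrays from 6 animals of each line. No array of non-transgenic epidermis was analysed here, and age and strain are not given in the sources used here, so every difference is between the 2 lines. It is given in log2 units as noggin minus BMP4, so a positive value means a higher level in noggin. The pools hold different animals, and the spread between arrays is a spread between pools.

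As a keratinocyte leaves the granular layer, transglutaminases form isopeptide bonds between glutamine and lysine residues and so join involucrin, loricrin and small proline-rich proteins into the cornified envelope. Deiminases turn the arginines of keratins and filaggrin into citrulline, which loosens the filaggrin-keratin matrix and opens filaggrin to proteolysis. Asprv1 cuts the linkers between filaggrin repeats of profilaggrin, and Casp14 cleaves filaggrin on the way to the free amino acids that hold water in the cornified layer.

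RefSeq promoter windows of GRCm38.p6, which run from 250 bases before to 50 bases after a transcript start, were found for 9 of the 10 genes. The 180 bases just upstream of the gene model are shown for Casp14, the enzyme with the largest difference between the lines, for Asprv1, the enzyme with the smallest, and for Padi3, whose window held an octamer. Capitals mark matches to the motifs searched. The stretches lie at chr10:78718348-78718527 on the minus strand for Casp14, chr6:86627994-86628173 on the plus strand for Asprv1 and chr4:140810649-140810828 on the minus strand for Padi3.
Casp14: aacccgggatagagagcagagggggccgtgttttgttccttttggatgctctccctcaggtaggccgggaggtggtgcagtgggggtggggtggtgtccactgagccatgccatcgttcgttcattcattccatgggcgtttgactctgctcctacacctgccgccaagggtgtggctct
Asprv1: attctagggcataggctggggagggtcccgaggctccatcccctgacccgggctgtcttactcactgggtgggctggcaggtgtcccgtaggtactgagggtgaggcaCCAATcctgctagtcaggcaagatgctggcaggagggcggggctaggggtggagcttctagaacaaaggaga
Padi3: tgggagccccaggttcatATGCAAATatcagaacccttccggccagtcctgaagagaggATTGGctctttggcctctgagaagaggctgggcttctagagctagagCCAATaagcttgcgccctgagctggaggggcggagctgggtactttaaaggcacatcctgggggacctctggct

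Both strands of each 300-base window were searched for 6 motifs. The octamer ATGCAAAT, which POU-domain factors bind, was present in the window of Padi3 and in 1.74% of all 32851 windows. The CCAAT box was present in the windows of 6 of the enzymes and in 37.4% of all windows. The TATA box TATAAA was present in Padi4 and Tgm3 and in 13.6% of windows. The grainyhead motif AACNNGTT was present in Tgm5 (4.2% of windows), the AP-1 motif TGANTCA in Padi4 (7.81%) and the GC-rich SMAD motif GGCGCC in Tgm3 (11.9%). None of these 6 strings occurred in the Casp14 window. The matches describe the letters of the windows and were not set against the expression values.

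The group means of most enzymes of the cornified layer lay close together in noggin and BMP4 epidermis, with Casp14 as the member of widest spread. Of the 10 genes, 5 had a higher and 5 a lower mean in noggin, and the median difference was 0.01, against -0.01 over all named genes. For 8 of the 10 the group means differed by less than 0.1 on the log2 scale. Casp14 had a mean 1.36-fold higher in noggin, and the other 9 genes differed by at most 1.08-fold. None passed the test: limma called 0 of the 10 at an adjusted p below 0.05 and 0 at an unadjusted p below 0.05, and the smallest adjusted p was 0.936, for Casp14.

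Over all 35556 probe sets the same fit called 0 (0%) at an adjusted p below 0.05, and 1994 (5.61%) lay below an unadjusted 0.05. The smallest two-sided p that an exact permutation test can give for one gene, with 2 arrays against 2, is 0.333. The noggin and BMP4 arrays did not overlap for 3 of the 10 enzymes, against 33.6% of all named genes. Tgm3 and Casp14 had both noggin arrays on top, as 15.7% of named genes did, and Padi4 had both at the bottom, as 17.9% did. A miss of the threshold does not show equal expression, and the 95% intervals below, each for one gene alone, say how large a difference the arrays leave possible.

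**Figure D1:**
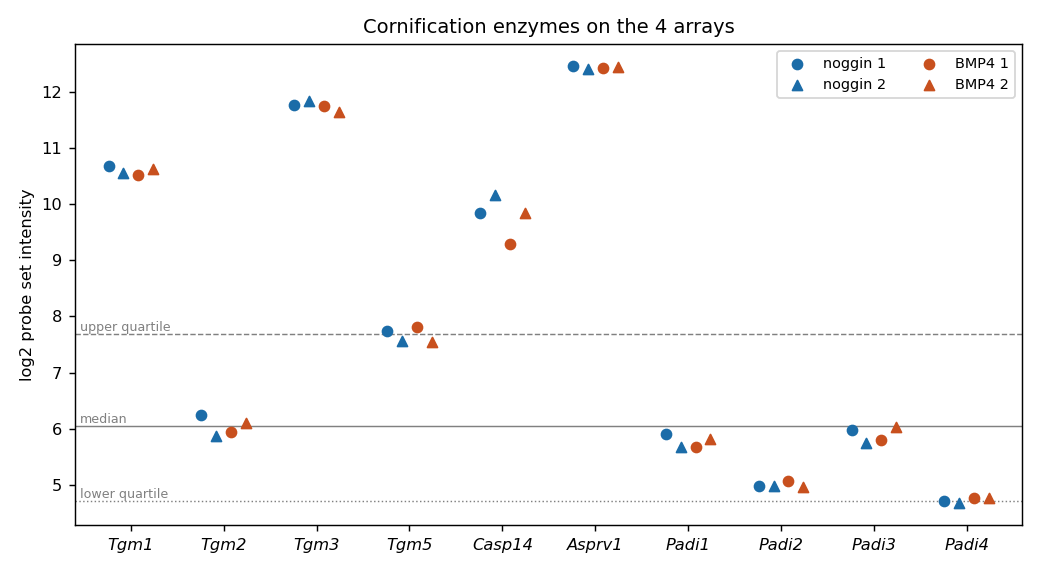
Log2 probe set intensity of each of the 10 enzymes (y axis) on the noggin arrays (blue) and BMP4 arrays (orange), with circles for replicate 1 and triangles for replicate 2; grey lines are the means over the 4 arrays of the quartiles of all probe sets. The 4 values of a gene lie close together except for Casp14, whose BMP4 replicate 1 value of 9.29 lies below the other 3; heights of different genes are not comparable.

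The captured tissue carried the keratins of footpad epidermis. Krt5 and Krt14, the keratins of basal cells, lay between 12.25 and 12.58 on the log2 scale, and Krt9, the keratin of palm and sole, between 13.28 and 13.44, far above the array medians of 6.04 to 6.06. Transcripts of other tissues were also present: Dcn, a proteoglycan of dermal fibroblasts, had values from 11.15 to 11.60 and Tnnt3, a troponin of skeletal muscle, from 9.31 to 11.40. Pearson's r between pairs of arrays, taken across named genes that are not independent of each other, was 0.985 to 0.993. The arrays did not group by line on this measure. BMP4 replicate 2 correlated at 0.993 and 0.992 with noggin replicates 1 and 2, but at 0.989 with BMP4 replicate 1. That array correlated at 0.985 with each noggin array. RMA values have no 0, and detection above background is unknown, so no marker can be called absent.

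Tgm1 encodes the membrane-anchored transglutaminase of the granular layer, whose loss causes lamellar ichthyosis. Its log2 values were 10.68 and 10.56 on the noggin arrays and 10.52 and 10.62 on the BMP4 arrays. The groups overlapped, with noggin replicate 1 highest and BMP4 replicate 1 lowest. The means were 10.6 ± 0.087 (SD, n = 2) and 10.6 ± 0.066 (SD, n = 2), and the difference was 0.05 (95% interval -0.22 to 0.33, limma adjusted p = 0.989). That interval reaches at most a 1.26-fold higher level in noggin and a 1.17-fold higher level in BMP4.

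Tgm3 encodes the epidermal transglutaminase, a proenzyme that proteolysis activates, made in the upper epidermis and in the hair follicle. Its log2 values were 11.77 and 11.83 in noggin and 11.75 and 11.63 in BMP4. The noggin arrays were the upper pair, but the gap between the groups was only 0.015. The difference of 0.11 (95% interval -0.16 to 0.37, limma adjusted p = 0.957) was smaller than the 0.12 between the BMP4 arrays.

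Tgm5 encodes a transglutaminase whose loss causes acral peeling skin syndrome, a shedding of the skin of hands and feet. It had log2 values of 7.74 and 7.56 in noggin and 7.81 and 7.55 in BMP4. In both lines replicate 1 was the higher array and the groups overlapped fully. The difference was -0.03, and its 95% interval ran from -0.41 to 0.36 (limma, adjusted p = 0.999).

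Tgm2 encodes the tissue transglutaminase, which many cell types make, among them endothelial cells, fibroblasts and macrophages. Its log2 values were 6.24 and 5.87 in noggin and 5.94 and 6.11 in BMP4. The highest and the lowest array were both noggin arrays, 0.37 apart, against a difference of 0.03 between the lines (95% interval -0.43 to 0.48). Tgm2 lay close to the array medians, and how far it stands above background is unknown. The intensities of 11 endothelial markers, summed on the linear scale, were 1016 and 905 in noggin and 855 and 996 in BMP4, and 7 of them had their higher mean in noggin. The sums of 11 fibroblast markers were 4528 and 4465 in noggin and 3651 and 5226 in BMP4, with 4 of them on average higher in noggin. Those of 15 Langerhans cell and macrophage markers were 3887 and 4161 against 1906 and 3435. The endothelial sum was highest on noggin replicate 1, as Tgm2 was, the fibroblast sum on BMP4 replicate 2 and the Langerhans cell and macrophage sum on noggin replicate 2, where Tgm2 was lowest. The part of these cells in the Tgm2 values was not tested.

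Asprv1 was the steadiest of the 10 enzymes. Its log2 values were 12.46 and 12.40 in noggin and 12.42 and 12.44 in BMP4, a range of 0.059 over the 4 arrays. The 2 noggin values enclosed both BMP4 values. The difference was -0.0036, and its 95% interval from -0.24 to 0.24 reaches at most a 1.18-fold difference either way.

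Casp14, the caspase restricted mainly to cornifying epithelium, had log2 values of 9.85 and 10.16 in noggin and 9.29 and 9.84 in BMP4. BMP4 replicate 1 was low and noggin replicate 2 high, while the remaining array of each line lay within 0.0087 of the other. The noggin mean was 10.01 ± 0.22 (SD, n = 2) and the BMP4 mean 9.57 ± 0.39 (SD, n = 2). The difference of 0.44 was smaller than the 0.55 between the BMP4 arrays, and its 95% interval ran from -0.21 to 1.09 (limma, adjusted p = 0.936). Leaving out BMP4 replicate 1 gave a difference of 0.16, and leaving out noggin replicate 2 gave 0.28. Without BMP4 replicate 2 it was 0.71. The sign held in each of the 4 fits on 3 arrays, but the size rested on single pools. The groups of Casp14 were separate in the deposited values, but after median centring, quantile normalization or cyclic loess they overlapped by 0.0021, 0.013 and 0.0012.

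**Figure D2:**
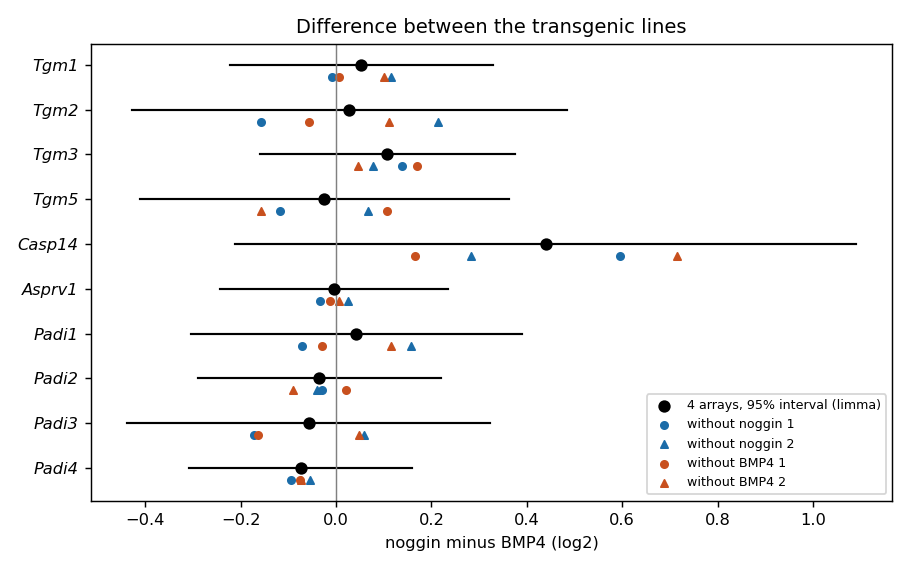
Noggin minus BMP4 (x axis, log2) for each enzyme: black points and bars are the difference over 4 arrays and its 95% interval from limma, and small symbols below are the differences with 1 array left out. All 10 intervals include 0; Casp14 spans from 0.16 to 0.71 on leaving out 1 array, and 7 of the other genes change sign.

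Several transcripts had nearly the array profile of Casp14. Among all named genes, the 3 nearest to Casp14 by Euclidean distance between the 4 values, each minus the gene's own mean, were Pou2f3, Flrt2 and Dpp4, at 0.020, 0.037 and 0.052. Pou2f3, a POU-domain factor of suprabasal keratinocytes, had log2 values of 7.87 and 8.17 in noggin and 7.30 and 7.87 in BMP4. Flrt2, a membrane adhesion protein, had 7.59 and 7.91 against 6.99 and 7.58, and Dpp4, a surface peptidase, 7.25 and 7.59 against 6.76 and 7.25. In each of these genes BMP4 replicate 1 was the lowest and noggin replicate 2 the highest array. That order follows from picking the genes for their nearness to Casp14 and is no separate observation. This likeness rests on 4 values for each gene.

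The sums of Langerhans cell, T cell and muscle markers were lowest on BMP4 replicate 1 as well. This was not particular to them: fibroblast, endothelial, sebaceous gland, and melanocyte and Merkel cell sums were also lowest there. So were those of the substrate, filaggrin, protease, ichthyosis and transcription factor lists below. The sum of neutrophil and monocyte markers was lowest there with Lyz2, but not without it. Keratinocyte, hair follicle and sweat gland sums were not lowest on that array. In bulk epidermis fewer cells of a type and less RNA per cell cannot be told apart. Among 15 Langerhans cell and macrophage markers, 13 had the higher mean in noggin, with the sums given above. All 10 T cell markers were on average higher in noggin, with sums of 1235 and 1547 against 907 and 1253. Of 20 skeletal muscle markers 19 were, with sums of 12918 and 6521 against 3532 and 8371. Of all named genes 47.8% had a higher mean in noggin. On leaving out 1 array the counts fell to as few as 10 for Langerhans cell, 7 for T cell and 16 for muscle markers. In that order the groups did not overlap in 10 of 15, 3 of 10 and 3 of 20, against 33.6% of all named genes. None of these markers passed the test. For Langerhans cell and T cell markers noggin replicate 2 had the highest sum, as for Casp14, whereas for muscle it was noggin replicate 1. That too was not particular to them. The sums of neutrophil and monocyte markers, of the filaggrin and protease lists and of all named genes were also highest on noggin replicate 2. The part of the Langerhans cell, T cell and muscle markers in the Casp14 values was not tested.

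**Figure D3:**
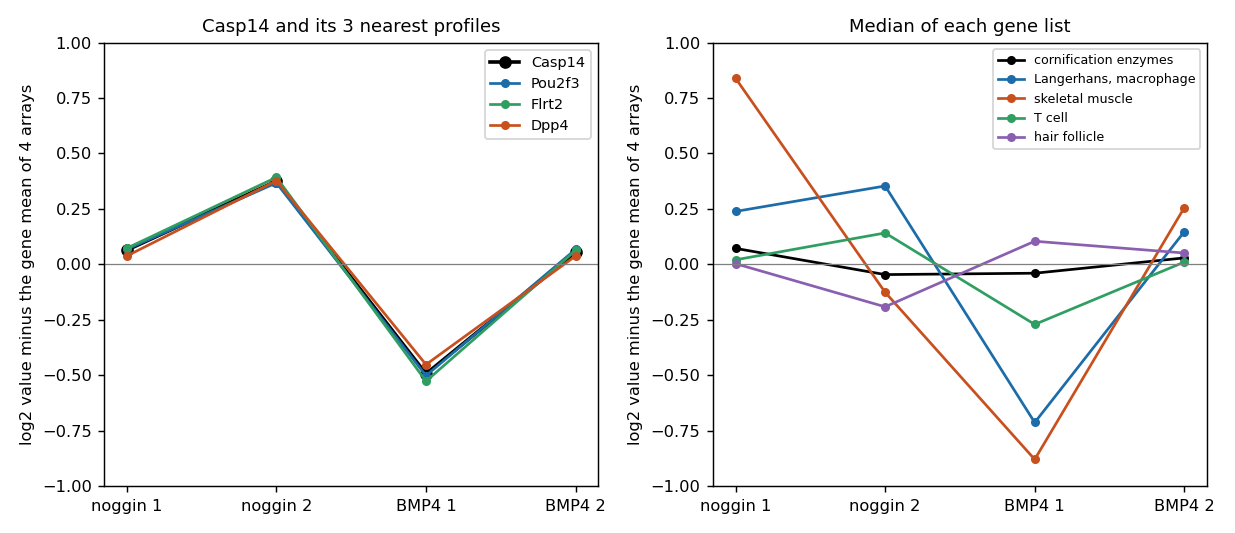
Log2 value minus the mean of 4 arrays (y axis) on each array (x axis), for Casp14 and its 3 nearest genes (left) and as the median over each gene list (right); lines only join the values of one gene or list. Casp14 and the Langerhans cell and macrophage markers share a low BMP4 replicate 1, at -0.49 and -0.71, whereas the median of the 10 enzymes stays between -0.05 and 0.07.

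The deiminases all lay below the array medians on every array, so their differences were measured on dim probe sets. RMA compresses differences of dim probe sets. Padi6, Padi4, Padi3, Padi1 and Padi2 follow one another in that order on chromosome 4 of the mouse gene table.

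Padi1, which deiminates keratins in the upper epidermis, had log2 values of 5.90 and 5.68 in noggin and 5.68 and 5.82 in BMP4. The groups overlapped, and the difference was 0.04 (95% interval -0.30 to 0.39). Padi3, which acts on filaggrin in epidermis and on trichohyalin and S100a3 in hair, had 5.98 and 5.75 in noggin and 5.81 and 6.03 in BMP4. The groups overlapped again, and the difference was -0.06 (95% interval -0.44 to 0.32). Tgm1, Tgm2, Asprv1, Padi1 and Padi3 kept a like order, with noggin replicate 1 and BMP4 replicate 2 above the remaining arrays. This was not particular to these enzymes. The median deviation from the gene mean over all named genes had that order too, at 0.011 and -0.018 in noggin and -0.0025 and 0.0090 in BMP4. The share of named genes with that order was not counted.

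Padi2, the deiminase of muscle, brain and macrophages, had log2 values of 4.98 and 4.99 in noggin and 5.08 and 4.97 in BMP4. Its range over the 4 arrays was 0.11, with BMP4 replicate 1 highest. The sums of muscle markers and of Langerhans cell and macrophage markers were lowest on that array, and the part of these cells in the Padi2 values was not tested. Padi4, the histone deiminase of granulocytes, had 4.72 and 4.68 in noggin and 4.77 on both BMP4 arrays. The groups did not overlap, and this was the one member whose difference, -0.07 (95% interval -0.31 to 0.16, limma adjusted p = 0.972), exceeded the gap between the arrays of either line, the larger being 0.040. Its values lay at the lower quartiles of the arrays, 4.71 to 4.72, and below it on noggin replicate 2. Of 14 neutrophil and monocyte markers, 8 had the higher mean in noggin, and the list's median difference was 0.03. The summed intensities were 1290 and 1595 against 1132 and 1263, and without Lyz2, a lysozyme of macrophages as well, 912 and 1092 against 983 and 923. Fcgr3, an Fc receptor, was on average lower in noggin by a difference of -0.33, and Camp, a granule cathelicidin, by -0.19. Lyz2 had its higher mean in noggin. Of the 13 markers other than Lyz2, 7 had a higher and 6 a lower mean in noggin. The part of these cells in the Padi4 values was not tested.

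By the same measure of likeness the genes nearest to Tgm3 were Siah1a, Hypk and Mir32, at distances of 0.0071, 0.0080 and 0.012, and those nearest to Padi4 were Tas2r118, Crisp4 and Gal3st4, at 0.0060, 0.0066 and 0.0095. These profiles were almost flat, with Siah1a between 10.61 and 10.82 and Crisp4 between 3.82 and 3.92.

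Of the 6 further members of the enzyme families 3 had a higher and 3 a lower mean in noggin, and none passed the test. Epb42, the catalytically inactive transglutaminase homologue of red cell membranes, had log2 values of 5.13 and 5.04 in noggin and 5.35 and 5.37 in BMP4, a difference of -0.27 (95% interval -0.52 to -0.03, limma adjusted p = 0.871). Tgm7 had 4.93 and 4.83 in noggin and 5.01 and 5.03 in BMP4. In both genes the noggin arrays lay below the BMP4 arrays. The groups thus did not overlap in 2 of the 6 (33.3%), against 33.6% of all named genes. Both genes lay below the array medians on every array, where RMA compresses differences. Epb42 and Tgm7 flank Tgm5 on chromosome 2 of the gene table. Tgm6, Tgm4, F13a1 and Padi6 overlapped between the groups, and the median difference over all 6 was -0.0021. Leaving out noggin replicate 1 gave -0.10 and leaving out BMP4 replicate 1 gave -0.12, and in either case 1 of the 6 had a higher mean in noggin.

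Most genes of the proteins that transglutaminases join had a higher mean in noggin, though none passed the test. Of 43 measured genes of cornified envelope substrates, 38 (88.4%) had a higher mean in noggin, against 47.8% of all named genes. Of the 10 enzymes 5 did. The median difference over the 43 was 0.16. In 22 of the 43 the groups did not overlap, against 33.6% of all named genes, and 21 of them had both noggin arrays above. The median was 0.08 without noggin replicate 1, with 33 of the 43 higher in noggin, and 0.09 without BMP4 replicate 1, with 32 higher. Of the list, 0 passed an adjusted p of 0.05 in limma and 6 lay at an unadjusted p below 0.05, which 4.28% of named genes did. The difference between this list and the enzymes was not tested, and the 2 were not matched for brightness. The 4 deiminases lay below the array medians, where RMA compresses differences. Sprr2b, a small proline-rich envelope protein, had log2 values of 8.12 and 7.83 in noggin and 7.08 and 6.60 in BMP4 (limma, adjusted p = 0.736). Lce3e, a late cornified envelope protein, had 9.54 and 9.41 against 7.89 and 8.89, whereas Sprr2k was lower in noggin, at 6.71 and 6.61 against 7.27 and 7.01. Probes that bind several of these close copies could mix their values, so the 43 genes are not 43 separate observations. The list also holds a pseudogene of the Sprr2 family.

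The best known substrates are named here for their role and not by rank. Ivl, involucrin, the early scaffold of the envelope, had log2 values of 10.36 and 10.62 in noggin and 10.38 and 10.67 in BMP4. Lor, loricrin, the main envelope protein, had 12.61 and 12.57 against 12.44 and 12.53, a difference of 0.10 (95% interval -0.15 to 0.35). Rptn, repetin, an envelope protein with glutamine-rich repeats, had 10.47 and 11.10 against 9.99 and 10.16. Tchh, trichohyalin, which Padi3 and Tgm3 modify in the inner root sheath, had 7.20 and 6.70 against 7.20 and 7.10. S100a3, a hair cuticle protein that Padi3 deiminates, had 8.25 and 8.03 against 9.86 and 9.67, a difference of -1.62 (limma, adjusted p = 0.451). The S100a3 groups lay far apart while those of Padi3 overlapped. Of the 25 other hair follicle markers, S100a3 and Tchh left out, 21 had a lower mean in noggin, and 14 without noggin replicate 2. Their median difference was -0.12. Their summed intensities were 2498 and 2335 in noggin against 6389 and 3054 in BMP4. Much of the sum on BMP4 replicate 1 came from 1 gene, the keratin Krt84, at 5.47 and 5.71 in noggin against 11.60 and 9.09 in BMP4. The part of these markers in the S100a3 values was not tested.

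**Figure D4:**
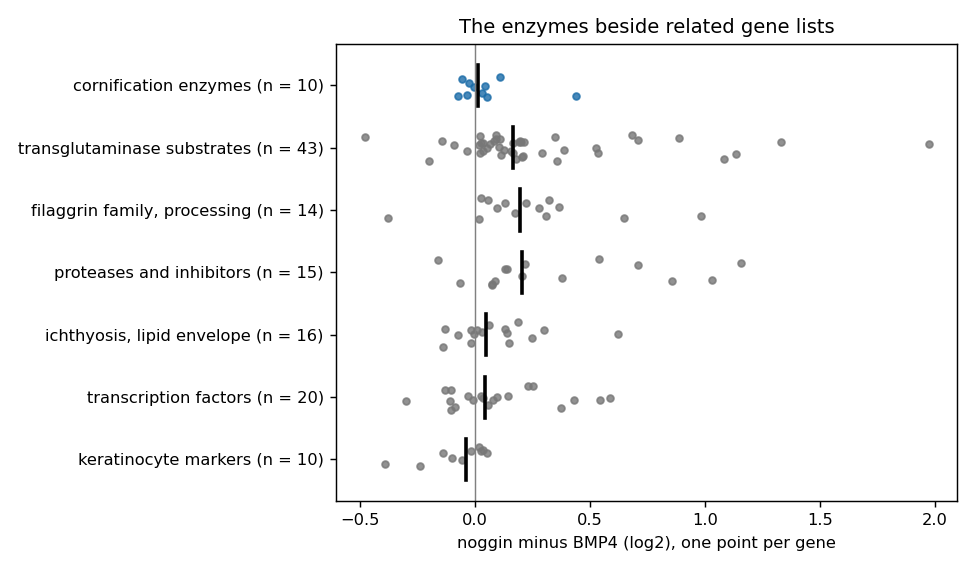
Noggin minus BMP4 (x axis, log2) with 1 point for each gene of 7 lists (y axis); black bars are list medians, and the vertical scatter within a list is only for legibility. The 10 enzymes centre on 0.01 with Casp14 apart at 0.44, while the substrate list centres on 0.16, the filaggrin list on 0.20 and the list of proteases and inhibitors on 0.20.

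Genes of filaggrin processing, the pathway of Casp14 and Asprv1, were also mostly on the noggin side without passing the test; Flg, filaggrin itself, is not analysed here. Of the 14 measured, 13 had the higher mean in noggin. The groups did not overlap in 8, against 33.6% of all named genes, with noggin above in 7 and below in Klk14, a kallikrein protease that differed by -0.38. The median difference was 0.20. It was 0.05 without BMP4 replicate 1 and 0.11 without noggin replicate 1, when 11 of the 14 had a higher mean in either case, and 0.32 without BMP4 replicate 2. Hal, the histidase that makes urocanic acid from filaggrin-derived histidine, had log2 values of 10.73 and 10.82 in noggin and 9.77 and 10.49 in BMP4. Klk7, a protease that sheds corneocytes, had 11.64 and 11.60 against 11.06 and 11.45. Pcsk6, a proprotein convertase, differed by 0.28 (95% interval 0.01 to 0.55), with both noggin arrays on top. Blmh, bleomycin hydrolase, which breaks down the filaggrin fragments left by Casp14 and is named here for that role, had 11.38 and 11.47 against 10.92 and 11.31. Adjusted p in limma was at least 0.874 over the list. In Hal, Klk7 and Blmh, as in Casp14, BMP4 replicate 1 was the lowest array.

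Among 15 cysteine and aspartic proteases and their inhibitors, 13 had the higher mean in noggin, and in 8 the noggin arrays formed the upper pair, as in 15.7% of all named genes. Their median difference was 0.20. It was 0.40 without noggin replicate 1, and 0.17, 0.21 and 0.22 without noggin replicate 2, BMP4 replicate 1 and BMP4 replicate 2. Without noggin replicate 2, 11 of the 15 had a higher mean in noggin. Adjusted p in limma was at least 0.652 over the list. Lgmn, the legumain that cystatin M/E restrains, had log2 values of 7.74 and 8.15 in noggin and 7.33 and 7.14 in BMP4 (limma, adjusted p = 0.808). Cst6, which encodes cystatin M/E, had 9.85 and 9.88 against 9.64 and 9.66. Both groups of arrays were tight for Cst6, and the difference of 0.22 had a 95% interval from -0.02 to 0.45. Ctsl, a protease of that pathway which processes Tgm3, had 10.43 and 10.27 against 10.14 and 10.39, and Ctsd had 11.09 and 10.87 against 11.06 and 11.22. The stefin genes Csta3, at 5.62 and 5.83 against 4.85 and 4.89, and Stfa3, at 12.11 and 12.20 against 10.60 and 11.40, belong to a family of close copies.

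Of 16 further genes of congenital ichthyosis and the corneocyte lipid envelope, 10 had a higher mean in noggin, and the median difference of 0.05 became -0.01 without BMP4 replicate 1 and 0.09 without noggin replicate 2. Abca12, the lipid transporter of lamellar granules, had log2 values of 11.02 and 11.08 in noggin and 10.76 and 10.97 in BMP4, and Lipn, an acid lipase, 5.35 and 5.83 against 4.69 and 5.25. Among 20 transcription factors of terminal differentiation 12 had the higher mean in noggin, and the list's median was 0.04. Hopx, a homeodomain cofactor, had 9.07 and 8.99 against 8.58 and 8.73, and Barx2, a homeobox factor, 7.41 and 7.81 against 6.97 and 7.08 (limma, adjusted p = 0.848 for both). Grhl3, a grainyhead factor known to activate Tgm1, is named for that role and had 9.75 on both noggin arrays and 9.70 and 9.75 on the BMP4 arrays.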

How the data were processed

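RNA of the captured epidermis was amplified by the NuGEN pico protocol, biotin-labelled and hybridised, per the labels' protocols. The deposited table holds log2 intensities per probe set, which the authors made with RMA in Affymetrix Expression Console, per the submitters' processing notes; version and settings are not given in the sources used here. RMA equalizes the distributions of the arrays and shrinks differences of dim probe sets. Scanner files were not used here. For arrays, their number limits the precision.

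The values of 35556 probe sets were fitted with limma 3.58.1 in R 4.3.3 (group only, eBayes, two-sided, 2 residual degrees of freedom), with Benjamini-Hochberg adjustment over all probe sets and a threshold of 0.05. The platform table gave 1 symbol to 21789 probe sets, of which 21698 matched GRCm38.p6 by Entrez identifier; where a gene had several probe sets, the one of highest mean stood for it. Errors are SDs of 2 arrays. The code was tested on simulated data.

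The members and lists were chosen with earlier results of these data known. Beside the members, the naming rule took at most 3 genes by p from each list, the marker gene of highest mean in a marker list, and the 3 nearest profiles of the 3 members of smallest p. Cst6, Ctsl, Ctsd, Klk14, Tgm4, F13a1 and Padi6 are named outside this rule. The other genes outside it are said to be named for a role. Protein sequences were not used here. Alternatives were a replicate block, trend and robust priors, a filter on dim probe sets, 3 normalizations, gene means, other thresholds and each array left out. Figures were drawn with matplotlib 3.10.9.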

Additional observations from a re-analysis of the deposited data

How the results depend on the processing

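The count of enzymes called in limma was 0 in each alternative run, as was the count over all probe sets at an adjusted p of 0.05. At 0.1 it was 0 on all 4 arrays and 4 without BMP4 replicate 2, and an unadjusted p below 0.05 gave 1994 probe sets. The smallest adjusted p of an enzyme under any alternative was 0.737. Replicate numbers were not taken as pairs, since the labels tie them to no litter or day. Deviations of same-numbered arrays correlated at -0.12 across probe sets, a value that cannot show whether the arrays were paired. With the replicate block 1 enzyme, Casp14, lay at an unadjusted p below 0.05 (limma, adjusted p = 0.988), and no call changed. The crossed pairing, chosen after seeing the data, called 0 enzymes and 0 probe sets. On leaving out 1 array the count of enzymes at an unadjusted p below 0.05 was 0 to 1, the latter again Casp14, without BMP4 replicate 2. Enzymes whose groups did not overlap numbered 6 to 7 on 3 arrays, where 64.1% to 70.8% of named genes did not overlap. Leaving out 1 array turned the sign of 7 of the 10 differences, which ranged from -0.0092 to 0.12 for Tgm1, -0.16 to 0.21 for Tgm2, -0.16 to 0.11 for Tgm5, -0.033 to 0.026 for Asprv1, -0.071 to 0.16 for Padi1, -0.090 to 0.020 for Padi2 and -0.17 to 0.058 for Padi3. Tgm3 (0.046 to 0.17), Casp14 (0.16 to 0.71) and Padi4 (-0.095 to -0.054) kept their sign. The median over the 10 ranged from -0.05 to 0.07. With 1 array left in a line, that array is assumed to vary like the others.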
